A study of Homo sapiens with 6 samples.

Results

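The EGF receptor family in MRC5 lung fibroblasts is described here through 10 genes taken by symbol from a count table of 58676 gene identifiers. They are the receptor genes *EGFR*, *ERBB2* and *ERBB3*, the ligand genes *HBEGF*, *AREG*, *EREG*, *TGFA* and *NRG1*, and the inhibitor genes *ERRFI1* and *LRIG1*. Of the 10, 9 had at least 10 counts summed over the 6 libraries and were tested among 19072 genes, and *TGFA* was not measured, with 0 counts in every library.

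MRC5 is an established line of human lung fibroblasts. In all 6 libraries the fibroblasts were exposed for 24 h to conditioned media (CM) of ATIIER:KRASV12 cells, an alveolar epithelial type II (ATII) line that carries a RAS protein switched on by 4-hydroxytamoxifen (4-OHT). The CM came from control cells in 3 libraries (control ATII CM, shortened to control CM) and from cells given 4-OHT for 24 h in the other 3 (4-OHT ATII CM, shortened to 4-OHT CM). The comparison asks how fibroblasts respond to signals from RAS-activated epithelium. Each cell type is a single line, and any 4-OHT carried in the CM cannot be told apart from what the RAS-activated cells released. The labels do not say whether the libraries of a group came from separate cultures, so p values measure the spread between these libraries, which may be technical.

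Receptors of this family are tyrosine kinases at the cell surface that work in pairs. Ligands such as amphiregulin are made as membrane-bound precursors, cut free by ADAM proteases, and bind receptors on the same cell or on its neighbors, and the paired receptors then signal through RAS and ERK, PI3K and STAT proteins. Neuregulins bind ERBB3 and ERBB4, ERBB2 has no known soluble ligand and serves as a partner, and ERRFI1 and LRIG1 restrain active receptors. In the lung these signals are best known from epithelial repair, and fibroblasts are both a source of ligands and carriers of the receptors.

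Library totals ranged from 17691849 to 26389449 counts, and control CM replicate 2 had the fewest. This library also stood apart from its group, since its counts differed from those of the other controls by a chi-square of 4.84 and 4.28 for each degree of freedom, against 1.91 to 2.67 in same-group pairs without it. Without it, 1530 genes were called at an adjusted p below 0.05 in edgeR instead of 1090, and 2 members (*EGFR* and *AREG*) instead of 3. Levels are given as CPM, the counts of a gene scaled to a common library total by TMM, and errors are SDs between the 3 libraries of each group. All 8 fibroblast markers examined were tested and their summed level ran from 37138 to 40656 CPM in control CM and from 38151 to 39615 CPM in 4-OHT CM. Of the 8, 3 rose and 1 fell, where 5.72% of all genes tested were called in either direction, and their log2 fold changes ran from -0.10 for *VIM* to 0.29 for *LUM*. Of 12 alveolar epithelial markers, *SFTPA1* and *NKX2-1* were at 0 in all libraries and 6 never exceeded 3 counts in any library, while *KRT19* was the most abundant with 139 to 180 counts. The summed level of these 12 was 9.14 to 10.9 CPM in control CM and 7.70 to 9.91 CPM in 4-OHT CM. Of 6 endothelial and leukocyte markers, *PECAM1* and *CDH5* were at 0 and the sum stayed between 0.937 and 2.36 CPM, with *CD14* the highest at 12, 16 and 19 counts in control CM and 23, 38 and 49 counts in 4-OHT CM. None of the tested epithelial, endothelial or leukocyte markers was called, and their part in the results was not tested. In bulk RNA, fewer cells that express a gene and less RNA of it per cell cannot be told apart.

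Members of the family moved in both directions. *AREG* and *NRG1* rose in 4-OHT CM, *EGFR* fell, and the other 6 tested members did not pass the threshold. At an adjusted p below 0.05 in edgeR's quasi-likelihood test, 3 of the 9 tested members were differentially expressed genes (DEGs), where 5.72% of all genes tested were (2.95% higher and 2.76% lower). The members were chosen with earlier results of these data known, so this count is not a test of the family. Over the 9, the log2 fold changes had a median of 0.025, against -0.0020 over all genes tested, and 5 lay above 0 and 4 below. In 4 members the group ranges were separate, as was so for 22.1% of all genes tested.

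**Figure D1:**
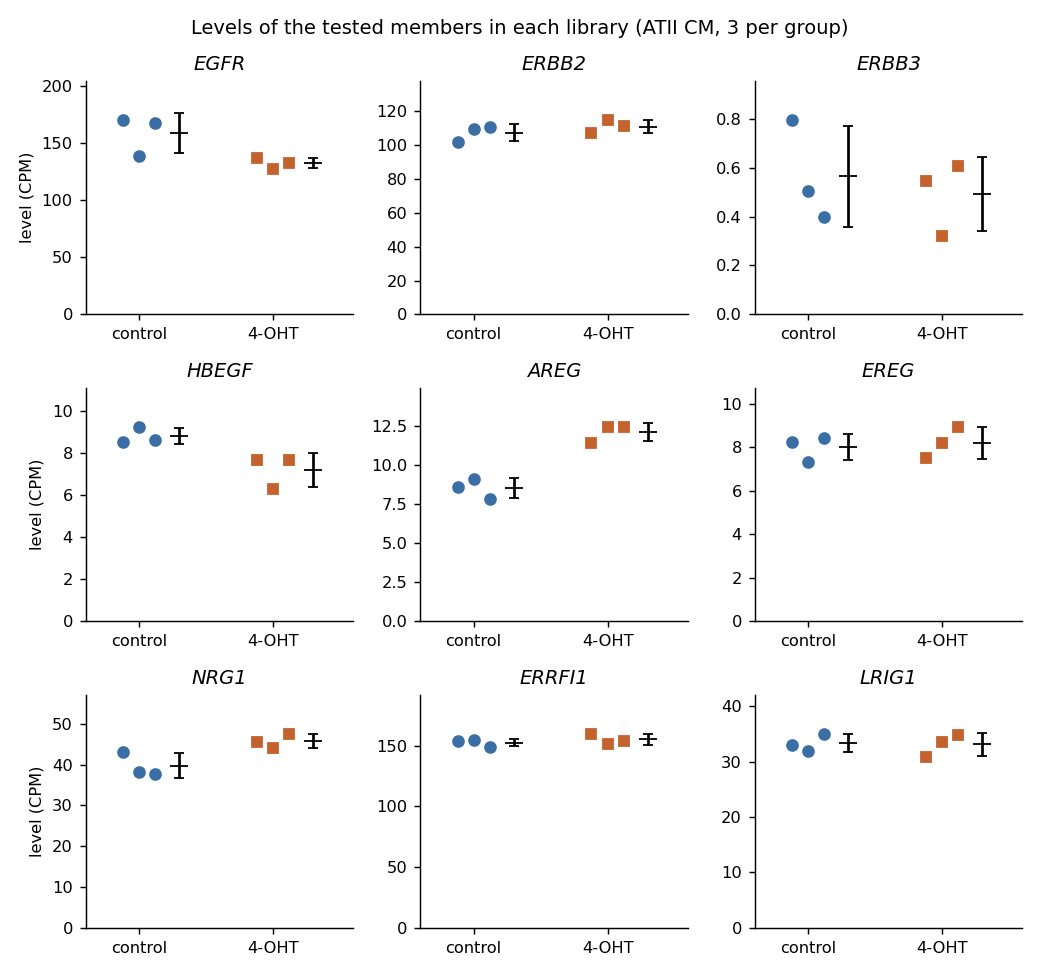
Level of each tested member in CPM (vertical axes, each starting at 0) in the 3 libraries of control CM (circles) and the 3 of 4-OHT CM (squares), with the group mean and SD beside them as bars. *AREG* and *NRG1* lie higher and *EGFR* and *HBEGF* lower in every library of 4-OHT CM, and the values of the other 5 overlap.

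*EGFR* (ENSG00000146648, chromosome 7 of GRCh38, 55019021 to 55211628, plus strand) encodes the EGF receptor, which binds amphiregulin, epiregulin, HB-EGF and TGF-α. It was at 170.1, 139 and 167 CPM in replicates 1 to 3 of control CM and at 137, 127 and 133 CPM in replicates 1 to 3 of 4-OHT CM. All libraries of 4-OHT CM thus lay below those of control CM, but control replicate 2 lay close above the highest of them. The means were 159 ± 17.3 CPM and 132 ± 4.76 CPM (SD, n = 3 each), and the log2 fold change was -0.26 (95% interval -0.39 to -0.14, standard error 0.0598, adjusted p = 0.0148 from edgeR). The call was lost when control replicate 1 or 3 or 4-OHT replicate 2 was left out (adjusted p = 0.0726, 0.0781 and 0.0941), and without control replicate 2 the log2 fold change was -0.35 (adjusted p = 3.45e-06). *EGFR-AS1*, a long noncoding RNA gene on the opposite strand, shares 186 of the 12521 exon bases of *EGFR* and had 7 counts over all libraries.

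The upstream start of *EGFR* is shown beside its value, for comparison with the *AREG* and *EREG* starts printed further on. The window of 300 bases covers chr7:55018767-55019066 on the plus strand of GRCh38.p14 (RefSeq), from 250 bases before the start of transcription. Capitals mark the GC box GGGCGG, which binds SP1-type factors, on either strand.

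EGFR: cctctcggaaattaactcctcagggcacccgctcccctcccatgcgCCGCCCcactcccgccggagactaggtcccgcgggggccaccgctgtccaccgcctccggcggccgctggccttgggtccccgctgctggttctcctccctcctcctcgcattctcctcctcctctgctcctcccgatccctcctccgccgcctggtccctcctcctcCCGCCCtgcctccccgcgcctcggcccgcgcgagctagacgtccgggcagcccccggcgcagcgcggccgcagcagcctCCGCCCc

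The *EGFR* window held 3 GC boxes, starting 204 and 36 bases before and 43 bases after the start, and no TATA box (TATAAA, either strand). A GC box was found in 45.0% of the 35116 promoter windows of this length and a TATA box in 11.5%. A second start of *EGFR*, downstream of the first and inside the gene, has its window at chr7:55109589-55109888, and that window held no GC box but a TATA box starting 146 and another starting 36 bases before the start.

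*ERBB2* (ENSG00000141736, chromosome 17, 39687914 to 39730426, plus strand) encodes the partner receptor without a ligand of its own. Its levels were 102, 109.5 and 111 CPM in control CM and 107, 115 and 111 CPM in 4-OHT CM, with overlap between the groups. The log2 fold change was 0.048 (95% interval -0.043 to 0.14, adjusted p = 0.637), so a change as large as that of *EGFR* lies outside the interval. Exons of *MIEN1* and *PGAP3* on the opposite strand cover 765 of its 10321 exon bases (7.41%).

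*ERBB3* (ENSG00000065361, chromosome 12, 56076799 to 56103505, plus strand), a receptor for neuregulins with a weak kinase, was close to the limit of detection. It had 17, 9 and 9 counts in control CM and 12, 8 and 16 counts in 4-OHT CM, which overlap. The log2 fold change of -0.20 had a 95% interval from -1.02 to 0.62 (adjusted p = 0.859), which leaves changes in either direction possible at this depth. *ERBB4*, the remaining receptor of the family and not one of the 10 genes, had 5, 3 and 1 counts in control CM and 0, 1 and 1 counts in 4-OHT CM.

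*AREG* (ENSG00000109321, chromosome 4, 74445134 to 74455009, plus strand) encodes amphiregulin, a ligand of EGFR, and changed most among the tested members. Its levels were 8.62, 9.13 and 7.85 CPM in control CM and 11.5, 12.4 and 12.5 CPM in 4-OHT CM. Every library of 4-OHT CM lay above every library of control CM. The means were 8.53 ± 0.641 CPM and 12.1 ± 0.572 CPM (SD, n = 3 each), and the log2 fold change came to 0.51 (95% interval 0.32 to 0.70, standard error 0.0889, adjusted p = 0.00243 from edgeR). *AREG* was a DEG under all 14 alternatives tried, with adjusted p values from 1.1e-05 to 0.0192. It is not an abundant gene, and its change rests on 163 to 328 counts per library.

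*EREG* (ENSG00000124882, chromosome 4, 74365143 to 74388751, plus strand) encodes epiregulin and is the upstream neighbor of *AREG*, 56382 bases away. It was at 8.25, 7.34 and 8.43 CPM in control CM and at 7.49, 8.18 and 8.94 CPM in 4-OHT CM. The groups overlapped, with a log2 fold change of 0.035 (95% interval -0.18 to 0.25, adjusted p = 0.918). The other ligand genes of this cluster were hardly detected, with 1 count in all libraries for *EPGN* (epigen) and 11 for *BTC* (betacellulin).

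The starts of *AREG* and *EREG* are printed because these neighboring genes encode ligands of one receptor and had log2 fold changes of 0.51 and 0.035. Each window has 300 bases on the plus strand of GRCh38.p14 (RefSeq), chr4:74444886-74445185 for *AREG* and chr4:74364895-74365194 for *EREG*. Capitals mark a TATA box (TATAAA) in both, the cAMP response element TGACGTCA, which CREB-type factors bind, in *AREG*, and its core TGACG in *EREG*.

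AREG: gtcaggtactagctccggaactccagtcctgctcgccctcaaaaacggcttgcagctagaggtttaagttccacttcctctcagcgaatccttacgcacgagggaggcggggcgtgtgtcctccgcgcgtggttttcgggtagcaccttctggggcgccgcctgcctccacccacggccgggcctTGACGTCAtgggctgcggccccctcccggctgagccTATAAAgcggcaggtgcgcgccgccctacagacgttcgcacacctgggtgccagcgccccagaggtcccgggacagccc
EREG: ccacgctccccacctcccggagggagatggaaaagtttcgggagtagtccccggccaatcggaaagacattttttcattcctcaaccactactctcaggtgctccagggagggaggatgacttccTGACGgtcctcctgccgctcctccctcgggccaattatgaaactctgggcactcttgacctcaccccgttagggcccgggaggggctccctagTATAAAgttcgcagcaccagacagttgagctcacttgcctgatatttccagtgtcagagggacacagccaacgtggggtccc

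The *AREG* window held the full element TGACGTCA starting 65 bases before the start, as did 1.85% of the 35116 windows. The *EREG* window held only the core, 125 bases before the start, which is contained in the full element and, counted on either strand, was found in 24.6% of windows. The TATA box started 29 bases before the start in *AREG* and 32 in *EREG*, and *AREG* also held a GC box 9 bases before the start, not capitalized above. Promoter windows were at hand for 8 of the 10 genes (13 windows), and the *AREG* window alone among them held the full element. AP-1 sites (TGACTCA, either strand), found in 4.95% of all windows, were in the second *EGFR* window and in one window of *LRIG1*. These matches describe letters and were not tested as binding sites.

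Within each library, the counts of *AREG* were set against those of *EREG*, a ratio that does not depend on how libraries are scaled and that was chosen after the values were seen. It was 1.05, 1.24 and 0.932 in control CM and 1.53, 1.52 and 1.40 in 4-OHT CM. All 3 values of 4-OHT CM were higher, with a difference of 0.47 on the log2 scale, and the exact two-sided permutation p was 0.1, the smallest that 3 libraries against 3 allow. The counts of *AREG* as a percentage of those of *EGFR* were 5.07%, 6.58% and 4.70% in control CM and 8.37%, 9.75% and 9.40% in 4-OHT CM. The difference was 0.76 on the log2 scale, and since *AREG* was higher and *EGFR* lower in every library of 4-OHT CM, the separation of this ratio adds nothing to theirs.

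**Figure D2:**
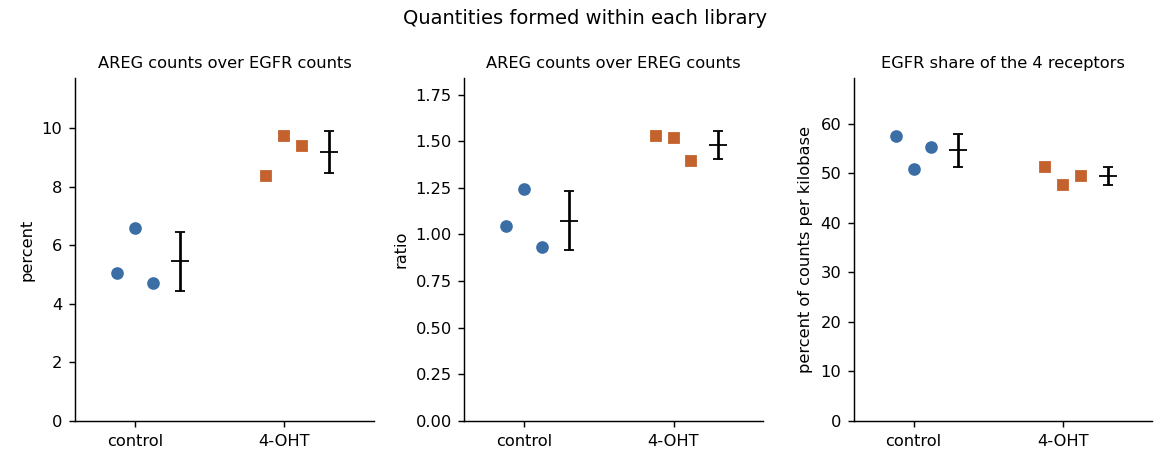
Quantities formed within each library for control CM (circles, n = 3) and 4-OHT CM (squares, n = 3), with the mean and SD as bars and all axes from 0. The panels show *AREG* counts as a percentage of *EGFR* counts, *AREG* counts over *EREG* counts, and *EGFR* as a percentage of the summed counts per kilobase of 4 receptors, and the groups overlap in the last alone.

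*NRG1* (ENSG00000157168, chromosome 8, 31639386 to 32767959) encodes neuregulin-1, a ligand of ERBB3 and ERBB4. Its levels were 43.2, 38.2 and 37.6 CPM in control CM and 45.5, 44.2 and 47.6 CPM in 4-OHT CM. The groups did not overlap, although control replicate 1 came near the lowest library of 4-OHT CM. The means were 39.7 ± 3.06 CPM and 45.8 ± 1.73 CPM (SD, n = 3 each), and the log2 fold change came to 0.21 (95% interval 0.089 to 0.32, standard error 0.0551, adjusted p = 0.0377 from edgeR). The call was lost without control replicate 2 or 3 or without 4-OHT replicate 1, 2 or 3 (adjusted p = 0.0560, 0.204, 0.0807, 0.0722 and 0.20), and also when libraries were thinned to the smallest total (adjusted p = 0.0706).

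*HBEGF* (ENSG00000113070, chromosome 5, 140332843 to 140346631, minus strand) encodes heparin-binding EGF-like growth factor, another EGFR ligand, and its values lay the other way. They were 8.53, 9.24 and 8.60 CPM in control CM and 7.67, 6.26 and 7.65 CPM in 4-OHT CM, without overlap. The log2 fold change of -0.29 (95% interval -0.51 to -0.064) had an unadjusted p of 0.0151 and an adjusted p of 0.145 in edgeR's fit of all genes, so *HBEGF* was not a DEG, and it was not one in any of the 14 alternatives (adjusted p from 0.113 to 0.406).

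*TGFA* (ENSG00000163235, chromosome 2, 70447280 to 70554193, minus strand) encodes TGF-α, a further EGFR ligand, and had 0 counts in each library. A count of 0 allows up to 3 counts, which is 0.114 to 0.170 CPM depending on the library, counting error only. *EGF* itself, outside the 10 genes, had 9 to 26 counts per library and a log2 fold change of -0.30 (95% interval -1.17 to 0.57).

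Both inhibitor genes overlapped between groups. *ERRFI1* (ENSG00000116285, chromosome 1, 8004404 to 8026308, minus strand) encodes MIG6, which binds and blocks the kinase domain of EGFR. It was at 154, 154 and 149 CPM in control CM and at 160.0, 152 and 154 CPM in 4-OHT CM. Its log2 fold change of 0.025 had the narrowest interval of the tested members, from -0.051 to 0.10 (adjusted p = 0.793). *LRIG1* (ENSG00000144749, chromosome 3, 66378797 to 66501263, minus strand) encodes a membrane protein that lowers the amount of receptor. It was at 33.0, 32.0 and 35.1 CPM in control CM and at 30.9, 33.5 and 34.9 CPM in 4-OHT CM, a log2 fold change of -0.011 (95% interval -0.13 to 0.11, adjusted p = 0.951). Exons of *SLC25A26* on the opposite strand cover 907 of the 7032 exon bases of *LRIG1* (12.9%).

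**Figure D3:**
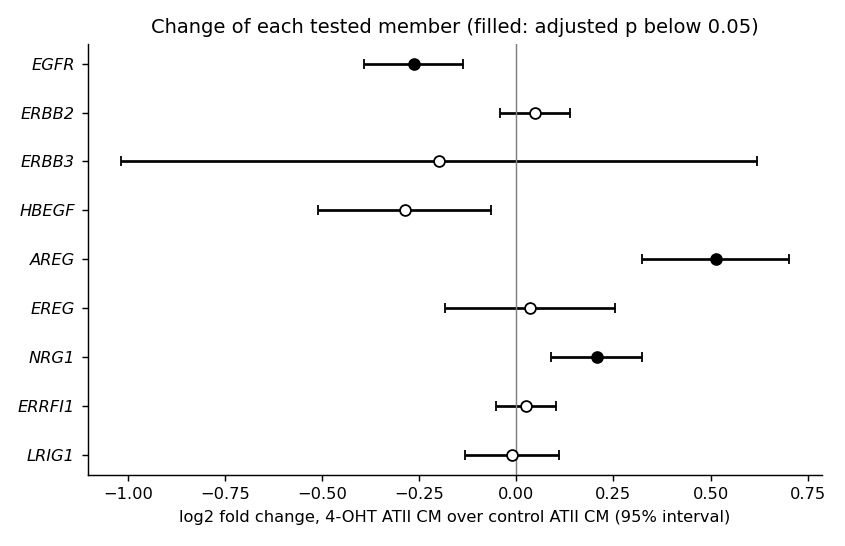
Log2 fold change of each tested member (horizontal axis, 4-OHT CM over control CM) with its 95% interval from edgeR. Filled points (*EGFR*, *AREG* and *NRG1*) have an adjusted p below 0.05, and the widest interval belongs to *ERBB3*, which had 8 to 17 counts per library.

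To compare genes with each other, levels were divided by the exon length in the deposited table and are given as RPKM (CPM per kilobase of exon). The highest was *ERRFI1*, at 36.7 RPKM over the 6 libraries. *EGFR* (11.6) and *ERBB2* (10.6) followed with values that overlapped, then *AREG* (6.27) and *LRIG1* (4.73), which also overlapped. *NRG1* (3.77), *HBEGF* (2.65), *EREG* (1.42) and *ERBB3* (0.0585 RPKM) came next, and each of these lay below its upper neighbor in every library.

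The main receptors were close to each other per length. In control CM *EGFR* was at 11.1 to 13.6 RPKM, above the 9.89 to 10.8 RPKM of *ERBB2*. In 4-OHT CM the 10.2 to 10.9 RPKM of *EGFR* overlapped with the 10.4 to 11.1 RPKM of *ERBB2*. The share of *EGFR* in the counts per kilobase of all 4 receptors (*ERBB4* included) was 57.6%, 50.9% and 55.3% in control CM and 51.2%, 47.7% and 49.4% in 4-OHT CM. Control replicate 2 lay among the 4-OHT values, and the groups differed by -5.18 percentage points (exact two-sided permutation p = 0.2). *AREG* was the ligand gene with the highest level per length in every library and held 38.4% to 41.8% of the summed RPKM of the 5 ligand genes in control CM and 46.9% to 50.5% in 4-OHT CM. This order depends on the exon length, which covers all annotated exons of a gene, 1648 bases for *AREG* and 11328 for *NRG1*. Before division by length, *NRG1* was higher than *AREG* in every library. Its means were 39.7 CPM in control CM and 45.8 CPM in 4-OHT CM, against 8.53 and 12.1 CPM for *AREG*. The summed RPKM of the 5 ligand genes was 13.0 ± 0.506 RPKM in control CM and 15.2 ± 0.573 RPKM in 4-OHT CM (SD, n = 3 each), a difference of 2.22 RPKM (exact two-sided permutation p = 0.1). This sum was not planned and adds nothing to the values of its genes. In control CM and 4-OHT CM, the mean of *AREG* was 5.18 and 7.36 RPKM. The means were 3.50 and 4.04 RPKM for *NRG1*, 2.91 and 2.38 RPKM for *HBEGF*, and 1.40 and 1.44 RPKM for *EREG*.

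**Figure D4:**
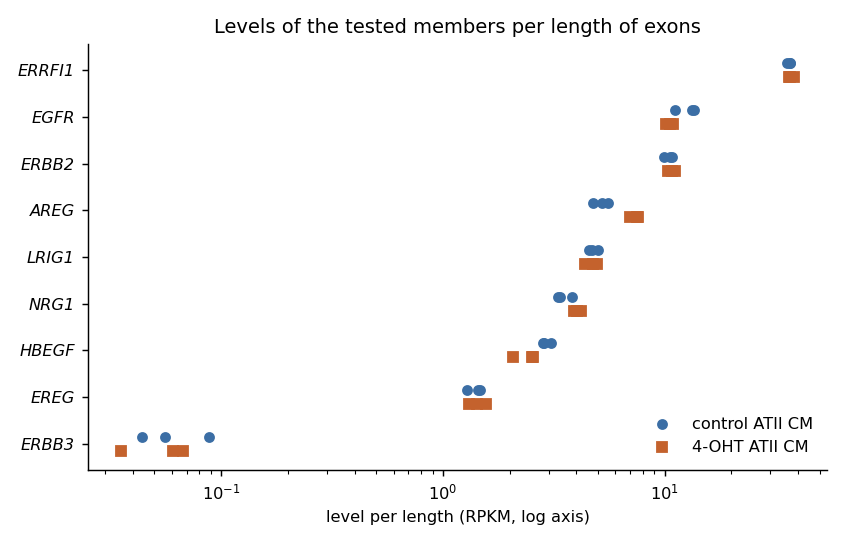
Level per length of the 9 tested members (RPKM, log axis) in each library of control CM (circles) and 4-OHT CM (squares), ordered by the mean over the 6 libraries. *ERRFI1* lies highest at 36.7 RPKM and *ERBB3* lowest at 0.0585 RPKM, and *EGFR* lies above *ERBB2* in control CM and overlaps with it in 4-OHT CM.

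Other genes of the pathway were followed through 6 hand-written lists of 83 genes, of which 81 were tested. Of these, 5 were DEGs that rose and 6 were DEGs that fell (13.6% of the 81, against 5.72% of all genes tested). The lists were chosen with earlier results of these data known, so this share describes the lists and is not a test of the pathway. Of the 7 remaining receptors and ligands, *ERBB4*, *EGF*, *BTC*, *NRG2* and *NRG4* were tested and none was called, and *EPGN* and *NRG3* were not measured.

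Of 7 genes of ligand shedding, only *ADAM12*, a membrane protease that can release HB-EGF, was a DEG, where 5.72% of all genes tested were. Its mean fell from 10.7 ± 0.201 CPM to 8.51 ± 0.467 CPM (SD, n = 3 in both groups), with -0.32 as the log2 fold change (adjusted p = 0.0392 from edgeR). *ADAM17*, the main sheddase of amphiregulin and TGF-α, was at 47.5 ± 3.83 CPM and 50.9 ± 0.689 CPM (log2 fold change 0.096, adjusted p = 0.372), and *ADAM10* was at 329 ± 8.23 CPM and 333 ± 5.24 CPM. The median of the list was -0.021.

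Among 25 adaptors and signal relays between the receptors and the nucleus, 1 rose and none fell, a share near the 5.72% called among all genes, with a median log2 fold change of 0.0063. The one that rose was *STAT3*, a transcription factor activated by receptor kinases, from 274 ± 2.63 CPM to 303 ± 6.88 CPM (SD, n = 3 each, log2 fold change 0.15, adjusted p = 0.0118 from edgeR). *HRAS* had the largest log2 fold change of the list, 1.79 (adjusted p = 0.163), but the libraries held 41, 27 and 45 counts in control CM and 122, 329 and 7 in 4-OHT CM. The 4-OHT values of *HRAS* lay on both sides of the control values, and the gene has a copy on an alternate contig of the assembly. Of the 10 family members, none had such a copy.

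Among 18 genes of receptor turnover and restraint, 1 rose and none fell, again near the 5.72% of all genes, with a median log2 fold change of 0.042. It was *PTPN1*, a phosphatase that removes phosphate from receptor kinases, from 129 ± 1.78 CPM to 143 ± 2.92 CPM (SD, n = 3 each, log2 fold change 0.15, adjusted p = 0.0199 from edgeR). *CBL*, the ubiquitin ligase that marks active EGFR for breakdown, was at 65.6 ± 5.87 CPM and 60.7 ± 0.270 CPM (log2 fold change -0.12, adjusted p = 0.258). *LRIG2*, a relative of *LRIG1*, had the largest change of the list, with a log2 fold change of -0.16 (adjusted p = 0.277).

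Transcripts known to respond to ERK moved in both directions, with 2 of 23 that rose, 5 that fell (2.95% and 2.76% of all genes tested did) and a median log2 fold change of -0.072. *SPRY1*, a feedback inhibitor of receptor signaling, had a mean that rose from 17.2 ± 1.29 CPM up to 23.9 ± 1.57 CPM (SD, n = 3 each, log2 fold change 0.47, adjusted p = 0.000955 from edgeR), and *PHLDA1*, a regulator of growth factor signaling, rose by a log2 fold change of 0.29 (adjusted p = 3.7e-05). *FOSL1*, an AP-1 subunit, fell from 88.1 ± 4.71 CPM to 64.6 ± 0.640 CPM (SD, n = 3 each, log2 fold change -0.45, adjusted p = 2.04e-05). *CCND1*, *MYC* and the ERK phosphatase genes *DUSP5* and *DUSP6* also fell, with log2 fold changes of -0.15, -0.18, -0.33 and -0.19 (adjusted p = 0.00332, 0.0379, 0.00928 and 0.0231). The early response genes *EGR1* and *FOS* were not called, with log2 fold changes of -0.088 and 0.13. Of the 3 matrix genes with a known link to EGFR, *DCN*, whose product decorin binds the receptor, rose by a log2 fold change of 0.33 (adjusted p = 2.66e-06), while *TNC* and *SPARC* were at -0.056 and -0.021 (adjusted p = 0.771 and 0.711).

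The calls of *SPRY1*, *PHLDA1*, *FOSL1*, *CCND1* and *DCN* held under all 14 alternatives. Those of *ADAM12* and *MYC* were lost in 8 and 9 of the 14, DESeq2 among them (adjusted p = 0.0982 and 0.105), and in edgeR their adjusted p reached 0.142 without 4-OHT replicate 1 and 0.126 without 4-OHT replicate 2. *STAT3* was not a DEG without control replicate 3 or 4-OHT replicate 2 or 3 (adjusted p up to 0.0875), and *DUSP5* without 4-OHT replicate 2 (adjusted p = 0.0672). *PTPN1* was a DEG among the fits with a library left out only without control replicate 2 (adjusted p up to 0.145 in the others). *DUSP6*, which shares 40.5% of its exon bases with a gene on the opposite strand, was not a DEG without control replicate 1 or 3 or 4-OHT replicate 1 or 3 (adjusted p up to 0.105). Exons on the opposite strand also cover 16.5% of *PHLDA1* and 10.3% of *CCND1*.

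**Figure D5:**
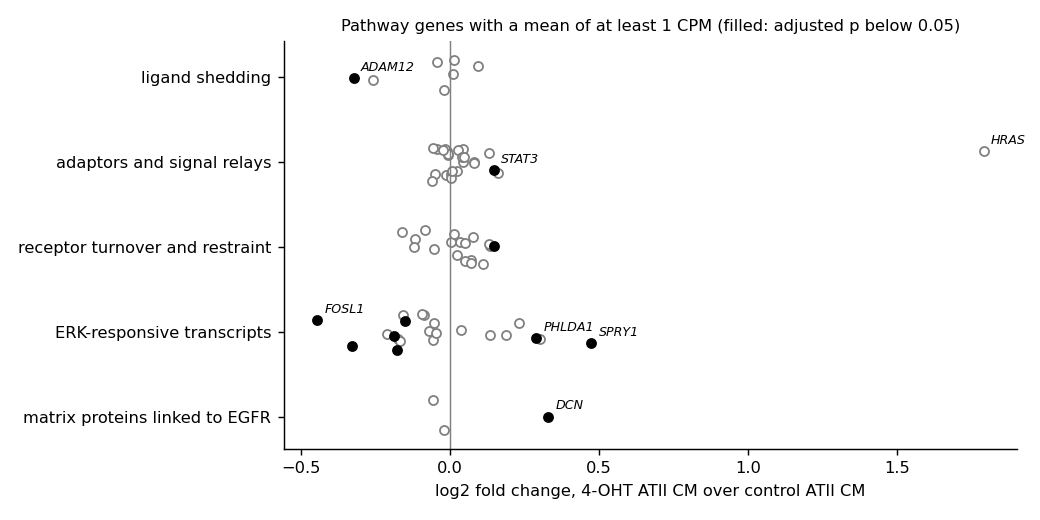
Log2 fold change (horizontal axis, 4-OHT CM over control CM) of the genes of 5 pathway lists with a mean of at least 1 CPM, one point a gene, spread vertically at random within its list. Filled points have an adjusted p below 0.05 in edgeR, and *HRAS*, the point farthest to the right at 1.79, is not filled.

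For each of the 3 DEGs of the family, the genes were found whose log2 CPM, taken relative to their own mean, followed it most closely over the 6 libraries (smallest root mean square distance among 9201 other genes with a mean of at least 10 CPM). They were *MAP1A*, *TAF1* and *DNAJC9* for *EGFR*, at distances of 0.0295, 0.0299 and 0.0300. For *AREG* they were *RASL11A*, *PLPPR3* and *DEPP1* at 0.0666, 0.0675 and 0.0679, and for *NRG1* they included *EMP2* and *ELF2* at 0.0235 and 0.0275. All these genes share the libraries with the gene they follow, and *DNAJC9* and *EMP2* were not called themselves (adjusted p = 0.0641 and 0.0719 from edgeR).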

How the data were processed

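RNA-Seq was performed in 6 libraries of MRC5 cells, grouped by their titles. Per the labels and the study's methods, the authors used Trim Galore for trimming and HISAT2 (version 2.1.0) for mapping to GRCh38, and deposited raw read counts per gene from featureCounts (version 1.6.5), with exon lengths. The annotation release, strand setting and treatment of multi-mapping reads are not given in the sources used here.

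Counts of the 45 identifiers listed on 2 lines were added up. Symbols came from GENCODE release 44, which named 18962 of the 19072 genes tested. Genes with at least 10 summed counts went into edgeR 4.0.16 under R 4.3.3 (TMM scaling, quasi-likelihood test, group as the only term, Benjamini-Hochberg adjustment over all genes, threshold 0.05). The F statistic gave the standard errors and intervals. The study's own tool, DESeq2 (here 1.42.0), limma-voom (limma 3.58.1), other scalings, filters, thinning, a replicate block and each library left out were alternatives. Replicate libraries differed beyond counting noise (chi-square per degree of freedom 1.91 to 4.84). The edgeR, DESeq2 and limma-voom fits were checked on simulated counts with the same dispersion for all genes and no library that stood apart. The permutation tests were not checked in this way. Copies on 261 alternate contigs were sought with minimap2 (90% of a transcript at 98% identity).

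Members and gene lists were chosen with earlier results of these data known. Named genes are all members, every gene of the pathway lists that passed, the gene of each such list with the largest change at a mean of at least 1 CPM, markers at the ends of their list and the 3 genes most like each member called, of which 1 is not reported here. The other ErbB receptors and ligands, *ADAM17*, *ADAM10*, *CBL*, *EGR1*, *FOS*, *TNC*, *SPARC* and markers at 0 were named in addition, for their role.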

Additional observations from a re-analysis of the deposited data

How the results depend on the processing

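Of the 14 alternatives, *AREG* was a DEG in all. *EGFR* and *NRG1* kept their direction in all, and with single libraries left out their log2 fold changes ranged from -0.35 to -0.21 and from 0.16 to 0.27. *EGFR* was not a DEG in 3 and *NRG1* in 6, among them thinning to the smallest library, which gave *NRG1* a log2 fold change of 0.21. Leaving out libraries also reduces the number of samples. The number of DEGs in the family was 1 or 2 when any library was left out, and among all genes it ranged from 533 to 1530. In the pathway lists it was 6 to 15 of the 81 with a library left out and 17 without the filter on low counts, against 11, while the calls among all genes went from 1090 to 1601 without that filter. For members that were not called, the sign turned when a library was left out in *ERBB3* (-0.42 to 0.14, with 0.14 without control replicate 1 and 0.034 without 4-OHT replicate 2), *EREG* (-0.036 to 0.098, with -0.019 without control replicate 2 and -0.036 without 4-OHT replicate 3) and *LRIG1* (-0.053 to 0.038, with 0.022 without control replicate 3 and 0.038 without 4-OHT replicate 1); the cause was not tested. *ERBB2*, *HBEGF* and *ERRFI1* kept direction and call throughout. DESeq2 gave *ERBB3* no adjusted p, so it has no value there.

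Same-numbered libraries of the groups did not deviate together (correlations -0.020, -0.12 and -0.11 over 9202 genes). Differently numbered ones had correlations from -0.068 to 0.18. These values cannot tell whether same-numbered libraries were prepared in parallel. With the replicate number as a block, *EGFR*, *AREG* and *NRG1* were DEGs with log2 fold changes of -0.26, 0.51 and 0.21, and no member's call changed. In the pathway lists, *ADAM12* and *MYC* were not DEGs with the block (adjusted p = 0.0668 and 0.0621 from edgeR). There, 10 genes were called, against 11. Among all genes, 985 were called with the block, against 1090. The ratio of *AREG* to *EGFR* differed by 0.67 to 0.91 on the log2 scale with single libraries left out, that of *AREG* to *EREG* by 0.38 to 0.59, and the receptor share held by *EGFR* by -7.02 to -3.68 percentage points. Among the tested members, depth limits *ERBB3* most, and *TGFA* was below what can be measured.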
